A study of Mus musculus with 34 samples.

Results

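The collagen genes described here are the protein-coding mouse genes whose symbol has the form Col, number, a, number. They were found by matching the Ensembl IDs of the count table to GENCODE M21 symbols, which gave 44 genes of the 46071 in the table. Of these, 39 had enough counts to be tested, and Col6a4, Col9a2, Col9a3, Col10a1 and Col17a1 did not. The genes were sorted into 11 fibrillar chains, 9 chains of basement membranes and the zones anchored to them, and 24 others (beaded filament, network, fibril-associated and transmembrane chains).

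Collagens are triple helices of 3 chains, made mainly by fibroblasts and mostly secreted into the matrix. Where a type has different chains, these come from separate genes. In skeletal muscle, types I, III and V form the fibrils of the connective tissue sheaths. Type IV forms the network of the basement membrane around each fiber and vessel, and type VI joins that membrane to the fibrils. Type XXII sits where fibers meet tendon, and types XIII and XXV are transmembrane collagens known for their roles where nerve meets muscle.

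RNA came from powdered quadriceps mixed with gastrocnemius of male mice on a mixed background of C57Blk6, C57Blk6J and 129. The 34 libraries form 8 groups. The 4 MIRKO libraries come from muscle without the insulin receptor (IR). In the 5 MIGF1RKO libraries the receptor for IGF-1 was deleted instead, and in the 6 MIGIRKO libraries both were. The 7 QKO libraries lack these same receptors and also FoxO1, FoxO3 and FoxO4, transcription factors that insulin signalling holds out of the nucleus. Floxed littermates of each colony were the controls, with 3 libraries of IRlox for MIRKO, 4 of IGFRlox for MIGF1RKO, 3 of IRIGFRlox for MIGIRKO and 2 of Qlox for QKO. MIRKO, MIGIRKO and QKO were made with Acta1-Cre, which is active in skeletal muscle fibers, so the alleles of fibroblasts and other cells of the muscle were not the target. The Cre of MIGF1RKO and the ages of the mice are not given in the sources used here. Each line was a colony of its own, so QKO and MIGIRKO also differ by colony. Nnt alleles were heterozygous in MIGIRKO and IRIGFRlox and mixed in MIRKO, IRlox, QKO and Qlox.

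Libraries held 1499025 to 7581198 counts, of which collagen genes took between 0.260% and 1.34% of them. Insr, the insulin receptor gene, was 27.8 to 69.8 CPM (counts scaled to a common library size, here on TMM-scaled totals) across MIRKO, MIGIRKO and QKO and 141 to 255 CPM across the floxed groups. Igf1r was 7.57 to 11.2 CPM in MIGF1RKO against 13.5 to 20.4 in IGFRlox, but 15.1 to 25.7 CPM in the libraries labelled MIGIRKO against 16.5 to 20.3 in IRIGFRlox. In QKO against Qlox, Igf1r was 4.01 to 11.9 CPM against 16.7 to 18.6 and Foxo1 was 12.6 to 28.3 against 132 to 148. Foxo4 was 5.08 to 10.2 CPM in QKO against 144 to 160 in Qlox, and Foxo3 was 93.1 to 136 against 79.7 to 103. Whole-gene counts of this kind do not separate a transcript with a deleted exon from an intact one. Across all tested genes the library labelled MIRKO 4 was closest to MIGIRKO 3 (Pearson r = 0.98), MIGIRKO 6 to MIRKO 3 (r = 0.98) and QKO 6 to MIGIRKO 6 (r = 0.97). These libraries stay in the groups of their labels, and several of the results that change without them are given both ways. The labels do not say in words that each library is a separate mouse, and p-values measure the spread between these libraries. In bulk RNA, fewer cells of a type and less RNA per cell cannot be told apart.

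Stretches upstream of a few genes are printed first, because the FoxO proteins bind DNA at a forkhead motif and because these genes include some that moved together and some that went apart. RefSeq start windows of GRCm38.p6, reaching from 250 bases before a start to 50 after it, were found for 35 of the 44 genes (38 windows). The forkhead letters TGTTTAC, searched on both strands, were in 1 of the 38 collagen windows (2.63%) and in 3.65% of all 32851 windows. That window belonged to Col6a1, 211 bases before the RefSeq start. The TATA letters TATAAA were in 13.2% of collagen windows and 13.6% of all windows, CCAAT in 34.2% and 37.4%, and the SMAD palindrome GTCTAGAC in none of the collagen windows and 0.213% of all windows. The GC box letters GGGCGG, also searched on both strands, were in 60.5% of collagen windows and 35.7% of all windows, and the median GC content of the windows was 59.8% and 52.7%. A match of letters is a description of the window and not a binding site. The lines below stop before the first annotated exon, run 5′ to 3′ along the gene's strand, and have in capitals the TATA letters of Col3a1 and the reverse complement of the forkhead letters in Col6a1. Col9a1 and Col24a1, which fell in MIGIRKO, hold neither, also in a further start window of Col9a1 that is not printed. No window was found for Col22a1, which fell as well.
Col3a1 chr1:45311288-45311537, plus strand: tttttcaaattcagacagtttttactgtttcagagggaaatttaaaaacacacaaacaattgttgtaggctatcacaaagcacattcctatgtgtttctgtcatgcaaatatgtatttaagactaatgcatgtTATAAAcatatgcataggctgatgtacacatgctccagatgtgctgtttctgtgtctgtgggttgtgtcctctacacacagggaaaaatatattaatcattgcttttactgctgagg
Col6a1 chr10:76726169-76726294, minus strand: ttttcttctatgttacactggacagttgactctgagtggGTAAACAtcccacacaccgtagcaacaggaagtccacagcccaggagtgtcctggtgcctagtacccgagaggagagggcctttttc
Col9a1 chr1:24177360-24177609, plus strand: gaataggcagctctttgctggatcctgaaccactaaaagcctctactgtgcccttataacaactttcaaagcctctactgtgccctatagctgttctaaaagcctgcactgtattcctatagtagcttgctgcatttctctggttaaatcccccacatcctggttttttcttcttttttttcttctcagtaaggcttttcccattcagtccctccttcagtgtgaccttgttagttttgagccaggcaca
Col24a1 chr3:145292222-145292471, plus strand: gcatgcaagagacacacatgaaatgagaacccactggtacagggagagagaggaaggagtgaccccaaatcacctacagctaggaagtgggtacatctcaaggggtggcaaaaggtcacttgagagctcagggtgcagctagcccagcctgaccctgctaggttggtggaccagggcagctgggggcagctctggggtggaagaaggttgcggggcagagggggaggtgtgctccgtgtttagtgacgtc

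Several collagen genes lie beside a partner. The 2 chains of the common type IV network are head to head on chromosome 8, with Col4a1 at 11198423 to 11312826 on the minus strand and Col4a2 at 11312805 to 11449287 on the plus strand (GRCm38), so that the annotated genes share the 22 bases shown here.
Col4a1 strand, chr8:11312805-11312826: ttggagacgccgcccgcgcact
Col4a2 strand, chr8:11312805-11312826: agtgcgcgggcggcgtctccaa
The genes Col4a3 and Col4a4 on chromosome 1 are 71 bases apart, head to head, and Col4a5 and Col4a6 on chromosome X are 1308 bases apart. Col3a1 and Col5a2 are neighbours on chromosome 1 with 24614 bases between them, Col6a5 and Col6a6 on chromosome 9 with 27917, and Col6a1 and Col6a2 on chromosome 10 with 85161. Col9a1 and Col19a1 lie 9205 bases apart on chromosome 1.

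In the 12 floxed libraries the collagen genes spanned a wide range of levels per kilobase of exon. Col1a1, the main chain of type I fibrils, was highest at 199 ± 102 CPM per kb (SD, n = 12). Its partner chain Col1a2 was at 138 ± 65.8 and Col3a1, the single chain of type III, at 96.1 ± 35.7. The spread of these 3 overlapped widely. Type VI and type IV chains followed, with Col6a1 at 46.4 ± 12.0, Col4a1 at 37.6 ± 8.99, Col4a2 at 31.3 ± 9.15 and Col6a2 at 24.7 ± 7.91 CPM per kb. Next came Col15a1, a basement membrane proteoglycan collagen, at 15.8 ± 3.92, Col6a3 at 14.7 ± 3.57, and the type V chains Col5a1, Col5a2 and Col5a3 at 12.0 ± 2.69, 11.5 ± 2.74 and 10.1 ± 2.61. Neighbours in this order from Col15a1 to Col5a3 did not differ beyond their spread. The myotendinous collagen Col22a1 was at 5.51 ± 1.27. The other genes were lower, down to Col6a4 at 0.0075 ± 0.011. Col1a1, Col1a2 and Col3a1 alone made up 55.7% to 74.3% of the collagen counts of a library.

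The floxed groups set the baseline of each colony. None of the 39 collagen genes differed among the 4 floxed groups at an adjusted p under 0.05 (edgeR's quasi-likelihood test with Benjamini-Hochberg adjustment over all 13646 tested genes), where 0.264% of all genes did, and 12 had an unadjusted p under 0.05. The share of all genes at that unadjusted threshold was not counted, here or in the comparisons below. The summed fibrillar level was nevertheless spread between colonies. It was 5659 to 6878 CPM in the 3 IRlox libraries, 2661 to 5694 in the 4 IGFRlox, 1996 to 5494 in the 3 IRIGFRlox and 1887 to 4858 in the 2 Qlox libraries. The IRlox libraries thus lay above those of IRIGFRlox and Qlox. In the knockout groups the fibrillar sum was 4971 to 7705 CPM in MIRKO, 3415 to 5100 in MIGF1RKO, 3842 to 8184 in MIGIRKO and 3656 to 5222 in QKO. The range of MIGIRKO thus covered that of IRlox and overlapped that of IRIGFRlox.

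**Figure D1:**
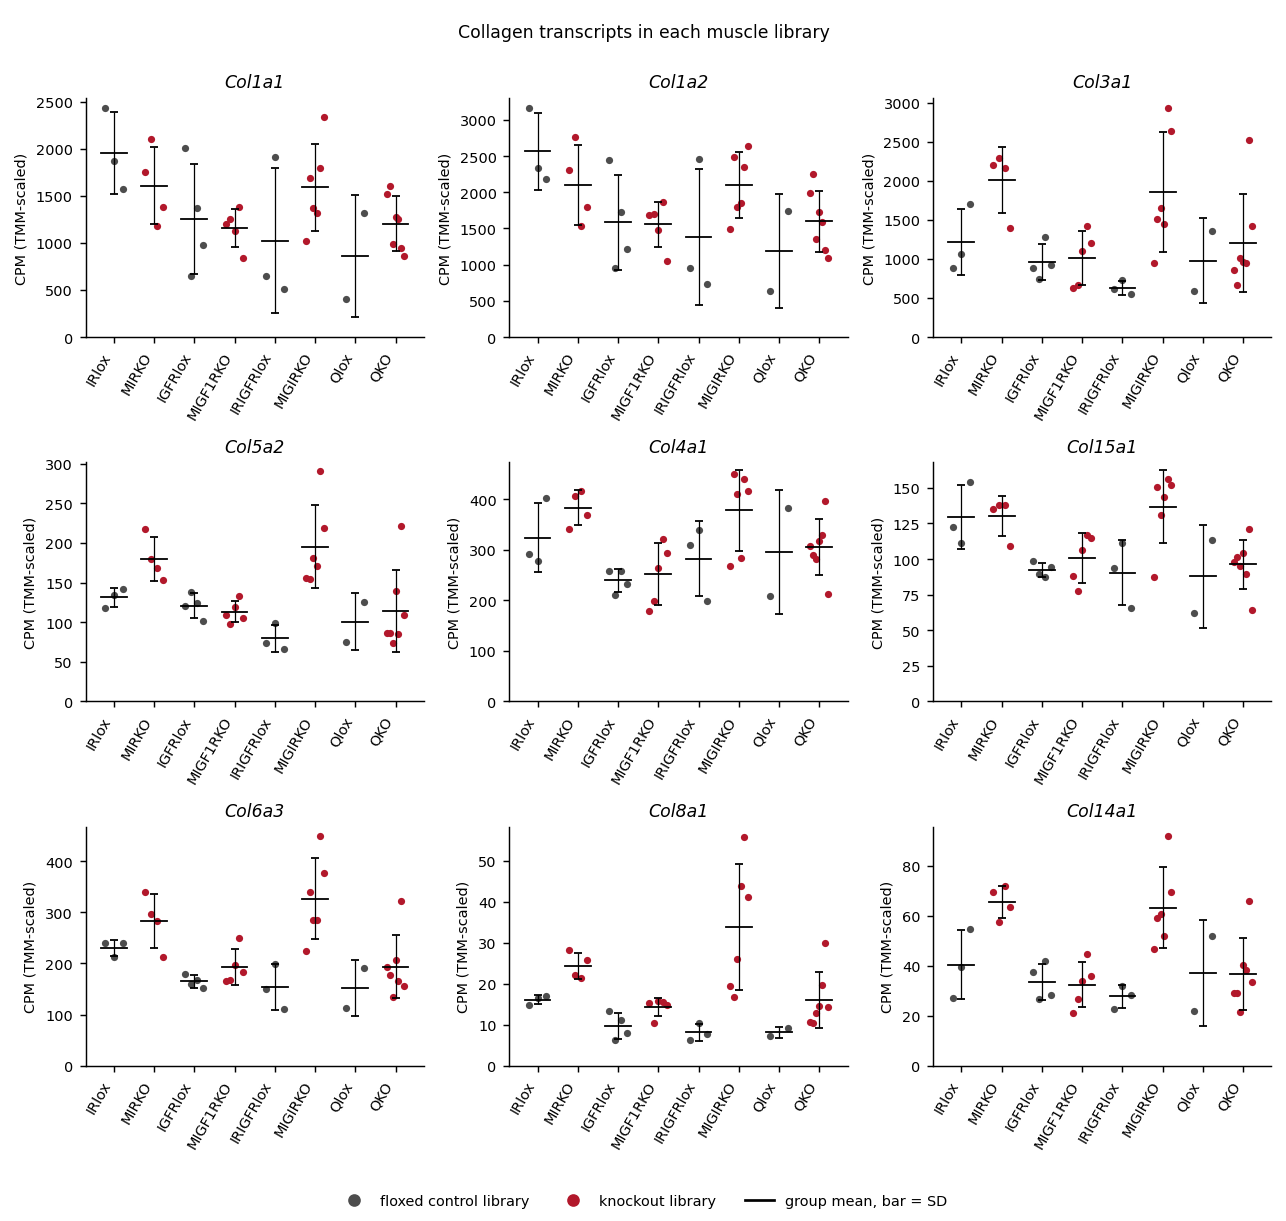
Level of 9 collagen genes in each of the 34 libraries, in CPM on TMM-scaled totals (y axis) for the 8 groups (x axis). Grey points are floxed libraries, red points are knockout libraries, the horizontal line is the group mean and the bar the SD. Col3a1, Col5a2, Col6a3, Col8a1 and Col14a1 lie higher in all 6 MIGIRKO libraries than in the 3 IRIGFRlox libraries, while Col1a1 and Col1a2 overlap.

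Fibrillar and other collagen genes held most of the changes that came with loss of both receptors. Against IRIGFRlox, 20 of the 39 tested collagen genes rose and 3 fell in MIGIRKO, a share to be read against 33.7% of all tested genes called in this comparison (17% higher and 16.7% lower). The median log2 change was 0.72 over the tested collagen genes and 0.04 over all genes. Among the 11 fibrillar genes 6 rose and 1 fell, among the 9 basement membrane genes 2 rose (a smaller share than that of all genes called), and among the 19 tested other genes 12 rose and 2 fell. The groups did not overlap for 12 of the 39 genes, 10 with all MIGIRKO libraries above and 2 with all below, where 29.9% of all tested genes had groups that did not overlap.

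Of the fibrillar genes, Col3a1 was 618, 727 and 546 CPM in the IRIGFRlox libraries and had a lowest, median and highest value of 941, 1585 and 2934 in MIGIRKO. All 6 knockout libraries lay above all 3 controls. The log2 change was 1.56 ± 0.39 (SE), or 2.94-fold, with an adjusted p of 0.0026 (edgeR). Its neighbour Col5a2, a chain of the type V collagen that starts heterotypic fibrils, was 73.7, 99.1 and 66.7 CPM in IRIGFRlox and 155, 176 and 290 (lowest, median, highest) in MIGIRKO. It rose by 1.29 ± 0.26 (edgeR adjusted p = 3.4e-04), again with no overlap. Col27a1, a fibrillar chain known from cartilage, rose by 1.28 ± 0.36 (edgeR adjusted p = 0.0059) with no overlap. Col5a1 (0.80 ± 0.26, edgeR adjusted p = 0.019), Col5a3 (0.56 ± 0.22, adjusted p = 0.045) and Col11a1 (1.02 ± 0.34, adjusted p = 0.022) rose with overlapping libraries. These calls were kept under 17, 12 and 15 of 20 alternatives, in this order, and all were lost without IRIGFRlox 3.

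The type I chains did not pass the test. Col1a1 was 649, 1913 and 512 CPM in IRIGFRlox and 1019, 1533 and 2332 in MIGIRKO, a log2 change of 0.63 ± 0.37 (edgeR adjusted p = 0.19). Col1a2 was 949, 2466 and 733 CPM in IRIGFRlox and 1494, 2105 and 2634 in MIGIRKO, a change of 0.61 ± 0.33 (edgeR adjusted p = 0.16). IRIGFRlox 2 stood far above the other 2 controls for both chains. Without it the change was 1.45 for Col1a1 (edgeR adjusted p = 0.0065) and 1.32 for Col1a2 (adjusted p = 0.0064).

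Of the basement membrane genes, Col15a1 was 94.0, 111 and 65.9 CPM in IRIGFRlox and 87.4, 147 and 156 (lowest, median, highest) in MIGIRKO, a rise of 0.59 ± 0.19 (edgeR adjusted p = 0.018), with 5 of the 6 knockout libraries above all controls. Col18a1, the source of endostatin, rose by 0.74 ± 0.26 (edgeR adjusted p = 0.025). The main type IV chains were not called. Col4a1 had a change of 0.42 ± 0.21 (edgeR adjusted p = 0.12) and Col4a2 one of 0.25 ± 0.20 (adjusted p = 0.35). The 4 less abundant type IV chains, Col4a3 to Col4a6, had changes from -0.41 to 0.43, and Col7a1, the anchoring fibril collagen, one of 0.02. None of these 5 was called.

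Of the 5 tested type VI chains 4 rose. Col6a3 was 151, 200 and 110 CPM in IRIGFRlox and 225, 312 and 449 in MIGIRKO, with no overlap, and rose by 1.09 ± 0.23 (edgeR adjusted p = 5.9e-04). Col6a1 rose by 0.83 ± 0.20 (edgeR adjusted p = 0.0018) and Col6a2 by 0.72 ± 0.24 (adjusted p = 0.022), both with libraries that overlapped by the IRIGFRlox 2 library. Col6a5, a rarer alternative chain, rose by 2.27 ± 0.60 (edgeR adjusted p = 0.0045), and Col6a6 had a change of 0.59 ± 0.28 (adjusted p = 0.10).

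Col8a1, a short-chain network collagen known from vessel walls, had the largest rise among the members above 5 CPM. Its values were 6.41, 10.3 and 7.70 CPM in IRIGFRlox and 16.8, 33.6 and 55.8 in MIGIRKO, a rise of 2.06 ± 0.34, or 4.16-fold (edgeR adjusted p = 3.3e-05). Its partner Col8a2 had a change of 0.65 ± 0.31 (adjusted p = 0.10). The fibril-associated collagens Col14a1 (1.19 ± 0.29), Col12a1 (0.72 ± 0.25) and Col20a1 (0.77 ± 0.23) rose, with no overlap for Col14a1. Reads of Col20a1 could be shared with BX649560.1, which lies within it on the same strand. The transmembrane collagen Col23a1 rose by 1.35 ± 0.30 (edgeR adjusted p = 1.0e-03) and Col28a1, known from the basement membranes of peripheral nerve, by 1.00 ± 0.25 (adjusted p = 0.0026), both with no overlap. Against all 12 floxed libraries Col28a1 was not called (edgeR adjusted p = 0.095). Col26a1 rose by 1.10 ± 0.42 (edgeR adjusted p = 0.041), a call kept under 11 of 20 alternatives.

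Col25a1, a transmembrane collagen that developing muscle needs for motor innervation, was at the limit of counting. Its counts were 1, 0 and 0 in IRIGFRlox and 5, 9, 23, 13, 0 and 3 in MIGIRKO, a pooled 53 against 1. The scaled ratio was 21.6-fold, with a 95% counting interval of 3.72 to 871 that covers counting error only. The fitted log2 change was 3.97 ± 1.34 (edgeR adjusted p = 0.022), and 1 MIGIRKO library held no count. The call was lost by limma-voom and without IRIGFRlox 2, IRIGFRlox 3 or MIGIRKO 3.

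The 3 genes that fell in MIGIRKO were Col9a1, Col24a1 and Col22a1. Col9a1, a fibril-associated chain best known from cartilage, had counts of 26, 20 and 22 in IRIGFRlox and of 1, 0, 0, 0, 0 and 1 in MIGIRKO. Pooled, 2 counts stood against 68, a ratio of 83.3-fold with a 95% counting interval of 22.2 to 702, and the fitted log2 change of -5.80 ± 0.67 (edgeR adjusted p = 2.4e-07) depends on the prior count. Col24a1, a fibrillar collagen known from bone, was 16.6, 10.7 and 10.3 CPM in IRIGFRlox and 3.24, 5.03 and 6.10 (lowest, median, highest) in MIGIRKO. It fell by 1.38 on the log2 scale (SE 0.29, edgeR adjusted p = 5.6e-04) with no overlap. Col22a1 was 63.0, 45.9 and 38.9 CPM in IRIGFRlox and 19.6, 32.1 and 40.2 in MIGIRKO. It fell by 0.66 (SE 0.25, edgeR adjusted p = 0.038), with 1 MIGIRKO library inside the control range. The Col22a1 call was kept under 13 of 20 alternatives. On library totals with no scaling factor its change was -0.16 and not called.

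Without IRIGFRlox 3 the count of called collagen genes in MIGIRKO was 13 (10 higher, 3 lower), and 25.6% of all tested genes were called. This was the library that held the lowest Col1a1, Col1a2, Col6a1, Col6a2, Col6a3 and type V values of its group. Leaving out MIRKO 4 and MIGIRKO 6 gave 21 called collagen genes (33.5% of all tested genes called), and Col5a3, Col12a1 and Col26a1 were then not called. With library totals and no scaling factor, all genes moved together by a median of 0.53 in place of 0.04, and the collagen median was 1.22. With all 12 floxed libraries as control, 24 of 37 tested collagen genes were called (20 higher, 4 lower), 19 of them among the 23. The collagen median was then 0.46, and 46.1% of all tested genes were called.

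**Figure D2:**
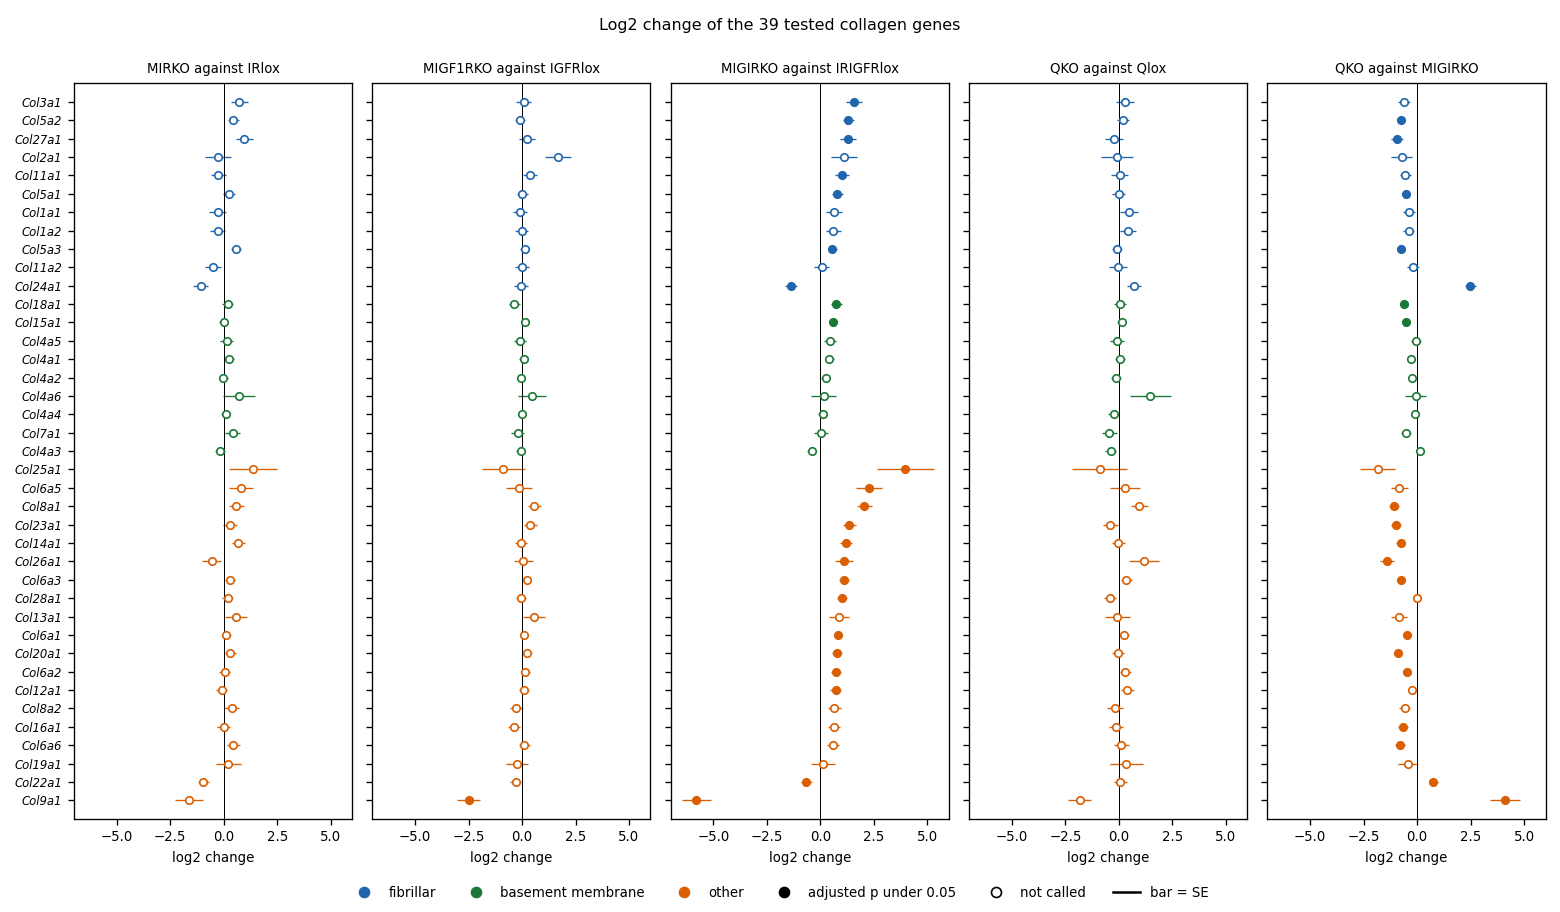
Log2 change of the 39 tested collagen genes (x axis) in 5 comparisons (columns), with genes in rows by class and by their MIGIRKO change. Colours mark the class, filled points have an adjusted p under 0.05, open points do not, and bars are 1 SE. The MIGIRKO column holds 20 filled points above 0 and 3 below, and the QKO against MIGIRKO column 16 below 0 and 3 above.

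Many collagen genes were lower in QKO, with the 3 FoxO genes also deleted, than in MIGIRKO. In QKO against MIGIRKO, which are different colonies and share the MIGIRKO libraries with the comparison above, 16 of the 39 tested collagen genes were lower and 3 were higher. Of all tested genes 30.2% were called in this comparison, 14% lower and 16.2% higher. The median log2 difference was -0.53 over the tested collagen genes and -0.03 over all. By class, 4 fibrillar genes were lower and 1 higher, 2 basement membrane genes were lower, and 10 other genes were lower and 2 higher. Groups did not overlap for 3 of the 39 (Col9a1 and Col24a1 above, Col26a1 below), against 7.41% of all tested genes. Cell markers moved in the same comparison: 10 of 14 fibroblast, 7 of 8 adipocyte (median -2.43) and 8 of 10 Schwann cell markers were lower, and 9 of 12 muscle fiber markers were higher and 1 lower. None of 10 macrophage markers was called, but 9 were lower without QKO 5 and QKO 6, where 36.8% of all tested genes were called. The part of these cell markers in the collagen difference was not tested.

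Among the fibrillar genes, Col5a2 had a lowest, median and highest value of 73.5, 86.8 and 221 CPM in QKO and of 155, 176 and 290 in MIGIRKO. It was lower by -0.77 ± 0.19 (edgeR adjusted p = 0.0028), and QKO 6 was the 1 QKO library inside the MIGIRKO range. Col5a3 differed by -0.76 ± 0.17, Col27a1 by -0.96 ± 0.27 and Col5a1 by -0.52 ± 0.20. The Col5a1 call was kept under 11 of 23 alternatives, and leaving out MIRKO 4 and MIGIRKO 6 was among those that lost it. Col3a1 was 663, 962 and 2523 CPM in QKO, a difference of -0.63 ± 0.28 that was not called (edgeR adjusted p = 0.09). Without QKO 6, the library that held the 2523, it was -0.92 (adjusted p = 0.005). The type I chains differed by -0.40 ± 0.28 (Col1a1) and -0.39 ± 0.26 (Col1a2) and were not called.

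In the other classes, Col15a1 was 64.3, 98.2 and 121 CPM in QKO (lowest, median, highest), lower than MIGIRKO by -0.51 ± 0.15 (edgeR adjusted p = 0.0098), and Col18a1 was lower by -0.62 ± 0.20. Col6a3 was 134, 177 and 322 CPM, lower by -0.75 ± 0.17 (edgeR adjusted p = 0.0012). Col6a1 and Col6a2 were lower by -0.49 ± 0.15 and -0.49 ± 0.19, and Col6a6 by -0.81 ± 0.22. The Col6a2 call was kept under 12 of 23 alternatives, and was lost without MIRKO 4 and MIGIRKO 6 among others. Col8a1 was 10.5, 14.4 and 29.9 CPM, lower by -1.07 ± 0.24 (edgeR adjusted p = 9.6e-04). Col14a1 (-0.78 ± 0.22), Col16a1 (-0.67 ± 0.22), Col20a1 (-0.88 ± 0.18), Col23a1 (-0.99 ± 0.23) and Col26a1 (-1.42 ± 0.34) were also lower. The Col16a1 call was kept under 19 of 23 alternatives.

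The 3 genes that were higher in QKO were the 3 that were lower in MIGIRKO than in its controls. Col24a1 was 17.9, 27.6 and 43.1 CPM (lowest, median, highest) in QKO, and all 7 QKO libraries lay above all 6 MIGIRKO libraries. The difference was 2.48 ± 0.25, or 5.59-fold (edgeR adjusted p = 7.4e-09). Col9a1 had 4, 8, 8, 1, 3, 5 and 5 counts in QKO, where MIGIRKO had at most 1, a difference of 4.12 ± 0.70 (edgeR adjusted p = 3.6e-05). Col22a1 was 31.1, 49.3 and 79.6 CPM in QKO, with overlap, higher by 0.76 ± 0.20 (adjusted p = 0.0045) but by 0.34 and not called with no scaling factor.

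Against their own floxed mice, none of the 39 collagen genes was called in QKO (edgeR, with 0.506% of all tested genes called, 0.0513% higher and 0.454% lower), 3 had an unadjusted p under 0.05, DESeq2 called 0 and limma-voom called 1. The median log2 change was 0.04 over collagen genes and over all genes. The collagen median rested on single controls, at -0.18 without Qlox 1 and 0.45 without Qlox 2 (0.06 over all genes in both). It was 0.24 with the runs of library identifiers in the titles as a block (0.01 over all genes). The 2 Qlox libraries differed widely, with Col1a1 at 403 and 1318 CPM and Col3a1 at 595 and 1362. Col24a1 was 13.1 and 19.7 CPM in Qlox, and 5 of the 7 QKO libraries lay above both (0.71 ± 0.34, edgeR adjusted p = 0.42). Col9a1 had 9 and 27 counts in Qlox, and all 7 QKO libraries lay below in CPM (-1.83 ± 0.56, adjusted p = 0.16 by edgeR and -1.99, 0.045 by limma-voom). Col8a1 was 7.22 and 9.17 CPM in Qlox and at least 10.5 in QKO, a change of 0.96 ± 0.40 (adjusted p = 0.36). These were the 2 genes of the 39 with groups that did not overlap, against 9.77% of all tested genes.

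Whether QKO and MIGIRKO moved differently, each from its own controls, was tested in the same fit. Of the 39 collagen genes 4 were called, 2 in each direction, where 5.76% of all tested genes were (3.61% higher in QKO, 2.15% lower). At an unadjusted p under 0.05 there were 14, a threshold at which all genes were not counted. Col24a1 differed by 2.09 ± 0.46 (edgeR adjusted p = 0.0077) and Col9a1 by 3.96 ± 0.95 (adjusted p = 0.012), in both cases with the QKO change above the MIGIRKO change. Col28a1 differed by -1.42 ± 0.37 (adjusted p = 0.021) and Col23a1 by -1.75 ± 0.46 (adjusted p = 0.022). The median difference was -0.59 over collagen genes and 0.01 over all genes, with a collagen median of -0.23 without Qlox 2 and -0.89 without IRIGFRlox 2. Without Qlox 1 none of the 4 was called (0.924% of all tested genes called). Without Qlox 2 (0.791%) or IRIGFRlox 3 (3.65%) only Col9a1 and Col24a1 were. Without QKO 6 there were 9 calls (2 higher, 7 lower, with Col3a1, Col5a2, Col6a3, Col14a1 and Col27a1 among the lower ones), where 10.2% of all tested genes were called. With no scaling factor there were 11 (2 higher, 9 lower), where 10.3% of all tested genes were called.

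**Figure D3:**
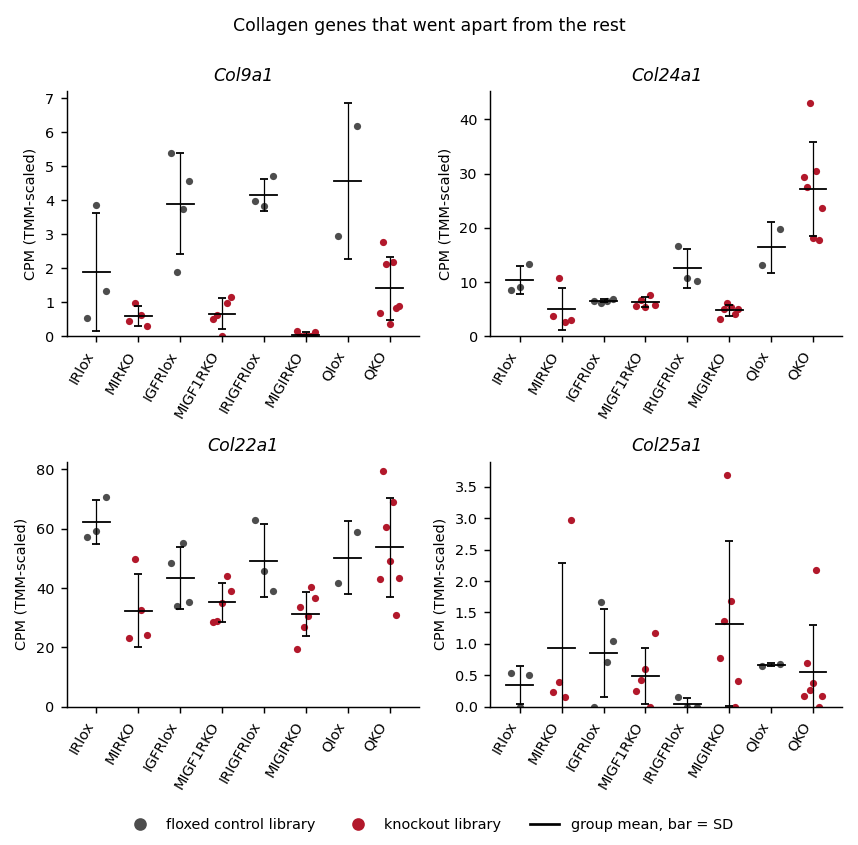
Level in CPM on TMM-scaled totals (y axis) of Col9a1, Col24a1, Col22a1 and Col25a1 in each library of the 8 groups (x axis). Grey points are floxed libraries, red points knockout libraries, the line is the group mean and the bar the SD. Col9a1 is at or near 0 in all 6 MIGIRKO libraries, and Col24a1 reaches 17.9 to 43.1 CPM in QKO against 3.24 to 6.10 in MIGIRKO.

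Loss of the insulin receptor alone gave no called collagen gene. In MIRKO against IRlox, edgeR called 0 of 39 where 1.25% of all tested genes were called (0.381% higher, 0.865% lower), 6 had an unadjusted p under 0.05, DESeq2 called 1 (Col22a1) and limma-voom 2 (Col22a1 and Col24a1). The median change was 0.19, beside 0.03 over all genes. Groups did not overlap for 8 of the 39 genes (7 above, 1 below), against 16.1% of all tested genes. Col22a1 was 57.1, 59.2 and 70.6 CPM in IRlox and 23.1, 49.7, 32.6 and 24.2 in MIRKO, all below, a change of -0.95 ± 0.27 (edgeR adjusted p = 0.072). Col24a1 was 8.61, 9.09 and 13.3 CPM in IRlox and 3.70, 10.8, 2.67 and 2.96 in MIRKO, with MIRKO 2 alone inside the control range (-1.07 ± 0.34, adjusted p = 0.10). Without MIRKO 2, Col22a1 (-1.22, adjusted p = 0.016) and Col24a1 (-1.76, adjusted p = 0.0031) were called. Col3a1 was 884, 1064 and 1697 CPM in IRlox and 2202, 2291, 2157 and 1390 in MIRKO, with the library labelled MIRKO 4 lowest (0.73 ± 0.39, adjusted p = 0.34).

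The control group mattered for MIRKO. Against all 12 floxed libraries, 13 of 37 tested collagen genes were called, 10 higher and 3 lower, where the IRlox libraries alone gave 0. The share of all tested genes called went from 1.25% to 21.2% with the same change of control. The 10 were Col3a1, Col5a2, Col5a3, Col6a1, Col6a3, Col6a5, Col8a1, Col14a1, Col20a1 and Col27a1, and the 3 were Col9a1, Col22a1 and Col24a1. The pooled controls include the IRIGFRlox libraries, so this comparison shares controls with that of MIGIRKO. Colonies cannot be told apart from genotype in the pooled comparison. The contrast of MIGIRKO with MIRKO, each change taken within its own colony, was called for 0 of 39 collagen genes and for 0% of all tested genes by edgeR. DESeq2 and limma-voom also called 0 of the collagen genes. At an unadjusted p under 0.05 edgeR had 11 collagen genes, a threshold at which all genes were not counted. The median of the contrast was 0.54 over collagen genes, and 0.33 without IRIGFRlox 3. Without the library labelled MIRKO 4, Col9a1 was called (-4.41, edgeR adjusted p = 0.034).

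Loss of the IGF-1 receptor alone changed 1 collagen gene. In MIGF1RKO against IGFRlox, 1 of 39 was called where 0.616% of all tested genes were (0.264% higher, 0.352% lower), and the median was 0 to 2 decimals over collagen genes as over all genes. Col9a1 had 18, 8, 21 and 22 counts in IGFRlox and 2, 3, 0, 4 and 4 in MIGF1RKO, a pooled 13 against 69, which is 5.73-fold lower with a 95% counting interval of 3.14 to 11.3. All MIGF1RKO libraries lay below all controls, and this was the 1 gene of the 39 without overlap, against 5.14% of all tested genes. It fell by 2.49 on the log2 scale (SE 0.55, edgeR adjusted p = 0.023). The call was lost without IGFRlox 1, IGFRlox 4 or MIGF1RKO 1, 2 or 3, where the edgeR adjusted p was 0.052 to 0.083. With the compared groups only, Col9a1 did not pass the filter and was not tested. Col2a1, the fibrillar chain of cartilage, had a change of 1.67 ± 0.60 that was not called (adjusted p = 0.25).

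Col9a1 was thus low in each knockout group against its own controls, though called in 2 of the 4 comparisons. Pooled counts were 13 against 24 in MIRKO, 3.11-fold lower (95% counting interval 1.52 to 6.65), and 34 against 36 in QKO, 4.03-fold lower (2.45 to 6.64). Its mean was 0.59 ± 0.29 CPM in MIRKO, 0.66 ± 0.46 in MIGF1RKO, 0.05 ± 0.08 in MIGIRKO and 1.41 ± 0.94 in QKO. In the floxed groups it ranged from 1.90 to 5.40 CPM over the 4 IGFRlox libraries, and the mean was 1.91 ± 1.73 in IRlox, 4.17 ± 0.47 in IRIGFRlox and 4.57 ± 2.29 in Qlox. IRlox 1, at 0.54 CPM, lay among the MIRKO libraries. The other chains of type IX, Col9a2 and Col9a3, had 29 and 33 counts over all 34 libraries and were not tested.

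Chains that share a molecule or a fibril were compared within each library, since a ratio inside a library does not depend on scaling. The log2 ratio of Col1a1 to Col1a2 counts held between -0.66 and -0.18 over all 34 libraries. Its group means differed between knockout and control by 0.01 in MIRKO, -0.04 in MIGF1RKO, 0.05 in MIGIRKO and 0.13 in QKO. Col4a1 to Col4a2, the pair that shares its start region, held between 0.20 and 0.84, with differences of 0.28, 0.06, 0.11 and 0.20 in the same order. Col3a1 to Col1a1 ranged far more, from -1.46 to 1.41. It was -1.46, -0.81 and 0.11 in IRlox and 0.33, 0.12, 0.87 and 0.00 in MIRKO, a difference of 1.05 (exact permutation test, two-sided p = 0.057, Benjamini-Hochberg adjusted over the 12 tests 0.476). In MIGIRKO it differed by 0.63 (exact p = 0.119, adjusted 0.476). The knockout and control libraries overlapped in all 12 tests, and none passed the adjustment. The smallest p that the number of splits allows was 0.029 in MIRKO, 0.0079 in MIGF1RKO, 0.012 in MIGIRKO and 0.028 in QKO.

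The Col3a1 to Col1a1 ratio also moved with the running number of the libraries. The library identifiers in the titles fall into 6 runs of near-consecutive values, which hold knockout and floxed libraries alike. The median of this ratio was -0.88 and -0.86 in the first and second run and 0.03, 0.13, 0.61 and 0.09 in the others. For Col4a1 to Col4a2 the medians were 0.33 and 0.43 and then 0.72, 0.65, 0.72 and 0.71. The titles do not say what a run was. Within runs that hold both groups, the Col4a1 to Col4a2 difference was 0.30 and 0.50 in the 2 runs of QKO, with a mean of 0.40 where the unblocked difference was 0.20. It was 0.09 to 0.16 over 3 runs of MIGF1RKO, -0.05 to 0.20 over 3 runs of MIGIRKO and 0.29 in 1 run of MIRKO. These within-run values rest on 1 library a side in each run and were not tested. The MIGIRKO difference in Col3a1 to Col1a1 ranged from -0.04 to 1.24 over 3 runs and the MIRKO difference was 1.14 in 1 run. With the runs as a block in the fit of single genes, 22 collagen genes were called in MIGIRKO, 21 of them among the 23. Of all tested genes 34.2% were then called.

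**Figure D4:**
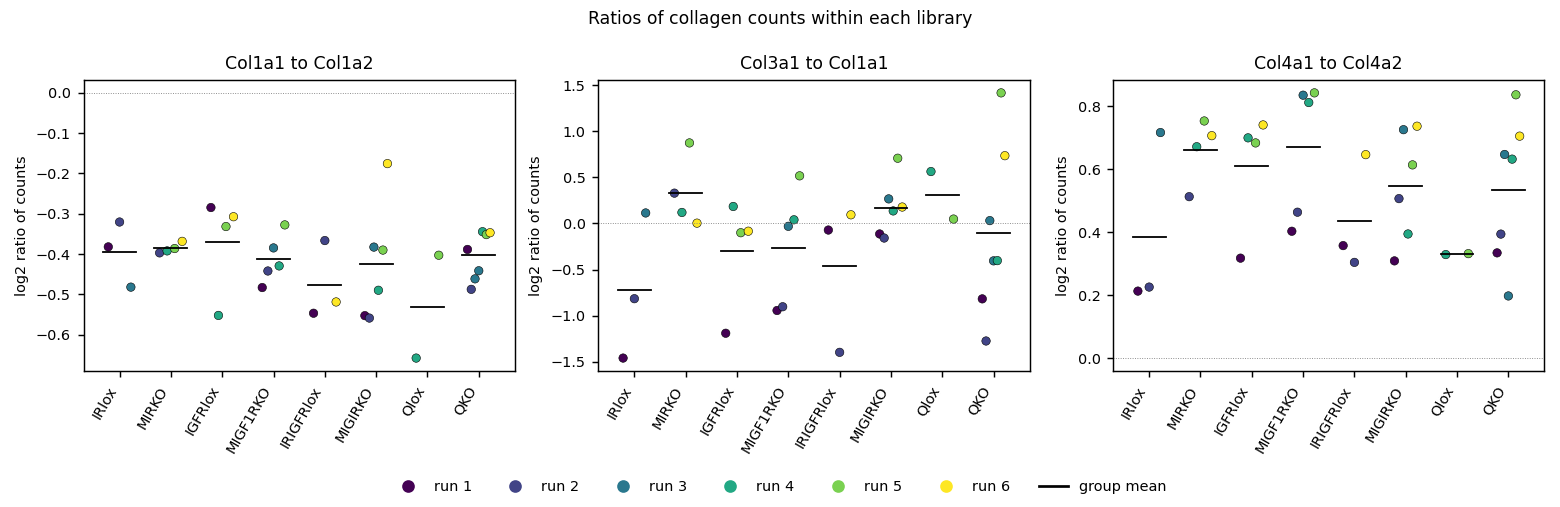
Log2 ratio of counts inside each library (y axis) for Col1a1 to Col1a2, Col3a1 to Col1a1 and Col4a1 to Col4a2, in the 8 groups (x axis). Points are libraries coloured by their run of near-consecutive identifiers in the titles and lines are group means. For Col3a1 to Col1a1 the lowest libraries come from the first 2 runs and from the IRlox, IGFRlox, IRIGFRlox, MIGF1RKO and QKO groups. In these runs MIGIRKO 1, MIGIRKO 2 and MIRKO 1 are at -0.11, -0.16 and 0.33.

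Genes that make, bind or degrade collagen were counted from lists, to be read against the 33.7% of all tested genes called in MIGIRKO against IRIGFRlox (17% higher, 16.7% lower, median 0.04). Of 29 genes for collagen synthesis and crosslinking, 12 rose and 3 fell in MIGIRKO (median 0.55). Lox, which starts crosslinks, rose by 1.71 ± 0.32 (edgeR adjusted p = 1.5e-04), Plod2, the telopeptide lysyl hydroxylase, by 1.60 ± 0.31, Crtap, part of the prolyl 3-hydroxylation complex, by 0.96 ± 0.20 and Loxl2 by 0.95 ± 0.23. The 3 that fell were the prolyl 4-hydroxylase subunits P4ha2 (-1.20 ± 0.20) and P4ha1 (-0.40 ± 0.15) and the export factor Mia3 (-0.56 ± 0.13). In QKO against MIGIRKO, 3 of these 29 were higher, P4ha2 (0.73 ± 0.17) and Mia3 (0.35 ± 0.11) among them, and 6 were lower, Plod2 (-0.96 ± 0.23) and Crtap (-0.51 ± 0.15) among them, where all genes had 30.2% called. Without MIRKO 4 and MIGIRKO 6, 3 were lower, where all genes had 31.6% called. Lox was the 1 gene of the list whose change differed between QKO and MIGIRKO (-1.44 ± 0.44, adjusted p = 0.049).

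Of 13 tested genes of collagen breakdown, 9 rose and 1 fell in MIGIRKO. Mmp2, the gelatinase A gene, rose by 1.00 ± 0.18 (edgeR adjusted p = 1.0e-04), Mmp19 by 2.37 ± 0.47, Fap by 0.92 ± 0.19 and the inhibitor Timp1 by 3.93 ± 0.81, while the inhibitor Timp4 fell by 0.93 (SE 0.31). Of 11 tested collagen receptors 5 rose, with Ddr2 at 0.74 ± 0.18 and Itga11 at 0.59 ± 0.19. Without MIRKO 4 and MIGIRKO 6, 3 rose and 1 fell, where 33.5% of all tested genes were called. Of 24 proteins that sit on fibrils, 17 rose, led by lumican (Lum, 1.60 ± 0.23), asporin (Aspn, 1.40 ± 0.24), Mfap5 (1.26 ± 0.21) and osteoglycin (Ogn, 1.03 ± 0.18). Of 13 other basement membrane genes 5 rose, among them nidogen 1 (Nid1, 0.60 ± 0.16) and laminin alpha 4 (Lama4, 0.67 ± 0.18). In QKO against MIGIRKO, 6 breakdown genes, 4 receptors and 13 fibril partners were lower, and none of these 3 lists had a gene that was higher. Of the basement membrane partners 1 was higher and 3 were lower, or 7 lower without QKO 5 and QKO 6. Of all tested genes 30.2% were called in this comparison, and 36.8% without QKO 5 and QKO 6.

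Genes of the TGF-beta pathway, which induces collagen genes, moved both ways. Of 20, 8 rose and 2 fell in MIGIRKO, where 33.7% of all genes were called, with Ltbp2 at 2.92 ± 0.74, Tgfb2 at 0.84 ± 0.23 and the receptor Tgfbr2 at 0.70 ± 0.17. The 2 that fell were the signal carriers Smad3 (-1.06 ± 0.19, edgeR adjusted p = 9.8e-05) and Smad4 (-0.32 ± 0.13). In QKO against MIGIRKO, Smad3 was higher by 0.98 ± 0.16 and 7 of the 20 genes were lower.

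Markers of several cell types in whole muscle also changed in MIGIRKO, some up and some down, and their part in the collagen result was not tested. Of 14 fibroblast markers 9 rose in MIGIRKO and none fell, with a summed level of 2564 to 5050 CPM against 2332 to 3134 in IRIGFRlox and 2220 to 3375 in QKO. Of 9 tendon markers 3 rose (1022 to 1526 CPM against 562 to 1250). Of 8 adipocyte markers 8 rose (2477 to 6068 CPM against 1923 to 2580), of 10 Schwann cell markers 8 rose (400 to 750 CPM against 198 to 301) and of 10 macrophage markers 9 rose (446 to 1366 CPM against 148 to 208). The Schwann cell sum of MIGIRKO overlapped those of the other floxed groups, at 356 to 564 CPM in IRlox, 321 to 656 in IGFRlox and 453 to 725 in Qlox. Of 10 endothelial markers none rose and Flt1 fell (527 to 578 CPM against 630 to 674). Of 12 muscle fiber markers 7 fell, with a summed level of 72243 to 114940 CPM against 190130 to 213265 in IRIGFRlox and 117675 to 227652 in QKO. No marker of these lists was at 0 in a whole group. MIGIRKO 6 held the highest fibrillar collagen sum of its group (8184 CPM) and its lowest fibroblast and adipocyte sums (2564 and 2477 CPM).

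QKO 6, the library with the highest Col3a1, Col5a1, Col5a2, Col6a3, Col14a1 and Col18a1 of its group, had a summed macrophage level of 2834 CPM against 240 to 660 in the other 6 QKO libraries. Its fiber markers were lowest of the 7, and its fibroblast markers, at 2220 CPM, were also the lowest. Of 18 genes that denervated or regenerating muscle expresses, 11 rose and 1 fell in MIGIRKO (33.7% of all genes called), and 2 were higher and 10 lower in QKO against MIGIRKO (30.2%). In MIRKO 4 rose (1.25% of all genes called), and none was called without MIRKO 4 and MIGIRKO 6 (0.245% of all genes called). The summed level of the list was 1356 CPM in the library labelled MIRKO 4 and 416 to 423 in the other 3, and 437 CPM in MIGIRKO 6 where the other 5 had 1035 to 1399. Of 7 satellite cell markers 3 rose and of 10 smooth muscle and pericyte markers 3 rose and 2 fell in MIGIRKO.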

How the data were processed

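The deposited file holds raw counts per Ensembl gene, with no normalization by the authors. Per the submitters' processing notes, reads were aligned to GRCm38.p4 with STAR and counted with featureCounts. Versions, annotation and strand setting are not given in the sources used here. Per the labels' protocols, the libraries were stranded.

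Genes passing edgeR's filterByExpr (13646) were scaled by TMM factors and fitted together (34 libraries, 1 mean per group) in edgeR's quasi-likelihood framework with Benjamini-Hochberg adjustment over all tested genes and a threshold of 0.05. The tools were R 4.3.3, edgeR 4.0.16, limma 3.58.1, DESeq2 1.42.0, Python 3.11.15 and matplotlib 3.10.9. SE is |log2 change| divided by sqrt(F). Exon lengths come from GENCODE M21. Total counts of 1499025 to 7581198 set the counting precision of weak genes.

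The collagen genes, 16 lists (222 entries) and tests were chosen with earlier results of these data known. Named are collagen genes called in any comparison or among the 10 highest, and of each list up to 4 called genes per direction by adjusted p. The procedure was tested on simulated data. The closing section gives the alternatives. No library was left out.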

Additional observations from a re-analysis of the deposited data

Results flagged for a closer look

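For each collagen gene of the report and each of the 3 chain ratios, groups of 4 to 7 libraries were searched for 1 library far from the others (Dixon's criterion). Of 160 combinations of value and group, 15 had such a library, and chance alone gives about 1 in 20.

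In QKO, replicate 6 stood above the other 6 libraries for Col3a1 (2523 CPM, others 663 to 1424), Col5a1 (176, others 73.8 to 110), Col6a3 (322, others 134 to 207), Col14a1 (65.8, others 21.4 to 40.3) and Col18a1 (47.4, others 19.9 to 28.3). The same library held the highest macrophage sum of its group. QKO 5, the library with the lowest total count, had 2.18 CPM of Col25a1 (others 0 to 0.698), which is 3 counts.

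In MIRKO, the library labelled MIRKO 4 was lowest for Col3a1 (1390 CPM, others 2157 to 2291), Col5a3 (87.0, others 109) and Col15a1 (109, others 135 to 138), and highest for Col25a1 (2.96, others 0.157 to 0.394). MIRKO 2 was highest for Col24a1 (10.8 CPM, others 2.67 to 3.70).

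In the other groups, MIGIRKO 1 was lowest for Col15a1 (87.4 CPM, others 131 to 156). MIGF1RKO 3 was highest for Col28a1 (5.45 CPM, others 3.22 to 3.38) and MIGF1RKO 2 lowest for Col8a1 (10.6, others 14.9 to 15.8). IGFRlox 1 had a log2 ratio of Col4a1 to Col4a2 of 0.317, where the others had 0.683 to 0.740.

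The change against the own controls differed between QKO and MIGIRKO, by edgeR's test of the difference itself, for Col24a1 (2.09), Col9a1 (3.96), Col28a1 (-1.42) and Col23a1 (-1.75). The report gives their errors and adjusted p-values.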

How the results depend on the processing

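Every alternative in which the gene was tested kept the direction of every collagen change called by edgeR. The alternatives were the DESeq2 test, DESeq2 size factors, no scaling factor, limma-voom, no filter, CPM above 1 in at least 3 samples, runs as a block, the compared groups only, all 12 floxed libraries as control, leaving out MIRKO 4 with MIGIRKO 6, leaving out each library and, added after the data were seen, leaving out QKO 5 with QKO 6. Counts of the other gene lists without these libraries were also added then. No paired analysis was possible because library numbers form 1 running series and tie no knockout mouse to a littermate. In MIRKO the 0 calls became 1 with DESeq2, 2 with limma-voom, 1 without QKO 5 and QKO 6, 13 with all 12 floxed libraries, and 0 to 2 on leaving out single libraries. Of all tested genes 2.72%, 1.39%, 2.95%, 21.2% and 0.0959% to 2.68% were called, in this order. In MIGF1RKO the 1 call became 0 with the compared groups only, where Col9a1 was not tested, and 0 to 1 on leaving out libraries. Of all tested genes 1.55% and 0.219% to 0.590% were called, in this order. In MIGIRKO the 23 calls became 15 with no filter and 13 to 26 on leaving out libraries, and were 33 (31 higher, 2 lower) with no scaling factor. Of all tested genes 13.0%, 22.9% to 33.5% and 51.3% were called, in this order. In QKO against Qlox the 0 calls became 1 with limma-voom (0.498% of all tested genes called) and 2 of 37 with all floxed libraries (8.02%). For the difference between QKO and MIGIRKO, 4 calls became 11 with no scaling factor, 9 without QKO 5 and QKO 6, and 0 to 9 on leaving out libraries. Of all tested genes 10.3%, 9.95% and 0.791% to 10.2% were called, in this order. For the difference between MIGIRKO and MIRKO, 0 became 2 without MIRKO 4 and MIGIRKO 6 (3.39% of all tested genes called), and 0 to 1 on leaving out libraries (0% to 1.07%). In QKO against MIGIRKO, 19 became 33 (2 higher, 31 lower) with no scaling factor, where 48.7% of all tested genes were called. The cause was not tested. Of the 23 genes called in MIGIRKO, 11 were called under all 20 alternatives. No chain ratio difference passed the adjusted threshold under another pseudocount or on leaving out libraries (lowest adjusted p 0.343, exact permutation test). Leaving out 1 library turned the sign of 4 small differences: Col1a1 to Col1a2 ranged from -0.035 to 0.046 in MIRKO and from -0.00026 to 0.25 in QKO, Col3a1 to Col1a1 from -0.26 to 0.20 in MIGF1RKO, and Col4a1 to Col4a2 from -0.037 to 0.13 in MIGF1RKO. The other 8 kept their sign. Depth limits Col9a1 and Col25a1, which rest on few counts.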
